A study of Homo sapiens with 4 samples.

Results

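The genes described here are the chains of collagens and laminins and the subunits of integrins in A2780, an established line of human ovarian carcinoma cells. Members were protein-coding rows of the deposited tables whose names have the form of a collagen chain (COL, a number, A, a number), a laminin chain (LAMA, LAMB or LAMC with a number) or an integrin subunit (ITGA or ITGB with a number or letter). The rule used names and no measured value. It found 81 of 57773 genes, of which 43 were collagen chains, 12 laminin chains and 26 integrin names. One of the integrin names, ITGBL1, is an integrin beta-like gene and not a subunit. RNA-seq libraries were made with an mRNA kit from WT A2780 cells treated with wogonin, a plant flavone, at 10 ug/mL for 48 h (2 libraries, numbered 3 and 4), and from WT A2780 cells given DMSO, its vehicle, with no time stated (2 libraries, numbered 1 and 2). All 4 libraries come from 1 cell line grown in medium with serum, and the labels do not say whether the pair in a group stands for separate cultures. The study's question was whether wogonin inhibits the growth of ovarian cancer by way of DNA demethylation, which transcript counts do not measure.

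Collagen chains assemble in the endoplasmic reticulum into helical trimers that form fibrils, basement membrane networks or beaded filaments outside the cell. Laminins are cross-shaped trimers of an alpha, a beta and a gamma chain and are the main organisers of basement membranes. Integrins are pairs of an alpha and a beta subunit that span the cell membrane, bind collagens, laminins, fibronectin or vitronectin outside the cell and link to actin inside it. In ovarian cancer these genes are known mostly from spread over the peritoneum, where tumour cells attach to mesothelium and its matrix.

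Each library held between 11005921 and 11839562 exon reads, and a floor of 3 counts stood for 0.253 to 0.273 CPM (here, counts brought to a common library size with TMM factors). Intron reads made up 7.96% and 5.61% of gene reads in wogonin 3 and 4, against 5.26% and 5.29% in DMSO 1 and 2, and mitochondrial genes held 1.67% and 3.03% of all exon reads in wogonin 3 and 4, against 1.65% and 1.45% in DMSO 1 and 2. The parts of these library differences in the results below were not tested, apart from the values without each library. The label of ovarian adenocarcinoma was set against 8 epithelial and ovarian carcinoma markers (PAX8, WT1, MUC16, EPCAM, KRT7, KRT8, KRT18 and CDH1). None of them had enough reads to be tested. Their summed TPM (a transcript share corrected for exon length) was 1.14 and 0.446 in the wogonin libraries and 1.46 and 1.85 in the DMSO libraries, with MUC16 at 0 reads in all 4, so the epithelial part of the label is not borne out by these markers. Leukocyte, platelet and endothelial markers had too few reads to test, with PTPRC, CD3E, GP9, CDH5 and VWF at 0 in every library.

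Of the 81 members, 37 had enough exon reads to be tested (18 collagens, 7 laminins, 12 integrins). The other 44 had at most 14 reads in any library, and 33 members had 3 reads or fewer in each library. A gene can pass this filter through the group in which it is high, and the tested members do not stand for all 81. Of the members called below, COL9A3, ITGB4 and LAMA3 passed it in this way, so their calls are no support for a direction. After wogonin 5 of the 37 were higher and 13 were lower at an adjusted p under 0.05, and 19 did not pass (edgeR quasi-likelihood test, Benjamini-Hochberg adjustment over all 13449 genes tested). The higher members were COL7A1, LAMA3, LAMB2, LAMC1 and ITGB1. The lower members were COL1A1, COL3A1, COL4A5, COL5A2, COL6A2, COL9A3, COL12A1, COL18A1, LAMA2, ITGA6, ITGAV, ITGB4 and ITGB5. These counts have to be read against a wide background, since 63.8% of all genes tested were called, 32.3% higher and 31.5% lower. Among the members 48.6% were called, 13.5% higher and 35.1% lower, so the lower share was near the background. The count higher depended on the setting. It was 9 of 36 tested members in exon reads matching a single place, beside 3994 of 12394 of all genes. With no filter on low counts it was 9 of 72, beside 4538 of 21173 of all genes. In exon and intron reads together it was 11 of 46, beside 4523 of 15201 of all genes. Some of the 11 passed the filter on low counts through the wogonin libraries alone, so that count is no support for a direction. The groups did not overlap in 31 of the 37 members, or 83.8%, against 81.9% of all genes tested. The median log2 fold change was -0.19 over the members, -0.31 over collagens, 0.29 over laminins and -0.11 over integrins, against -0.00066 over all genes tested. Changes of at least 1 log2 unit with an adjusted p under 0.05 were also counted. They were 2 of 37 members higher (COL7A1 and LAMA3) and 2 of 37 lower (COL9A3 and ITGB4). Among all genes tested they were 849 of 13449, or 6.31%, higher and 1337 of 13449, or 9.94%, lower.

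**Figure D1:**
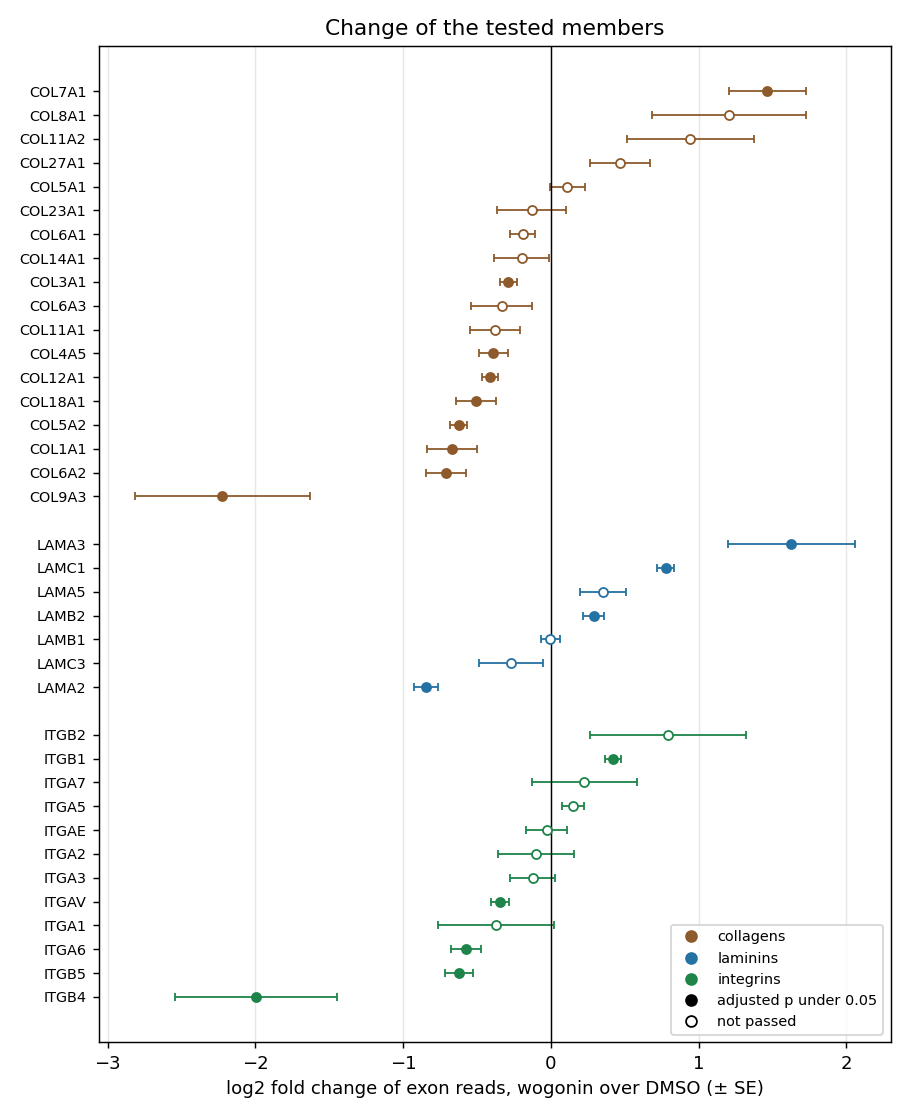
Log2 fold change of exon reads, wogonin over DMSO, with its standard error for each of the 37 tested members, coloured by family, with filled points for an adjusted p under 0.05. Collagens lie mostly below 0 with COL7A1 the 1 called above it, laminins are split between LAMC1, LAMB2 and LAMA3 above 0 and LAMA2 below it, and ITGB1 is the 1 integrin called above 0.

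As a share of all exon reads the collagens took 0.507% and 0.509% in the wogonin libraries, against 0.760% and 0.760% in the DMSO libraries. Laminins took 0.138% and 0.138% in the wogonin libraries and 0.115% and 0.113% in the DMSO libraries. Integrins took 0.267% and 0.288% in the wogonin libraries and 0.321% and 0.320% in the DMSO libraries. In each family the 4 values fell into separate pairs by treatment, with the collagen and integrin shares lower and the laminin share higher after wogonin. These shares were carried by few genes, since COL5A2, COL12A1 and COL3A1 together made 95.2% and 95.4% of collagen TPM in the wogonin libraries and 95.7% and 96.2% in the DMSO libraries. Among integrins ITGAV, called lower, held 16788 and 19379 of 29360 and 32458 exon reads in the wogonin libraries. In the DMSO libraries it held 25304 and 25934 of 36810 and 37929. Among laminins LAMC1, called higher, held 7413 and 6803 of 15237 and 15529 exon reads in the wogonin libraries. In the DMSO libraries it held 4642 and 4611 of 13251 and 13394. A family share can thus follow 1 gene and gives no direction for the other members. In bulk samples fewer cells of a type and less RNA per cell cannot be told apart.

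**Figure D2:**
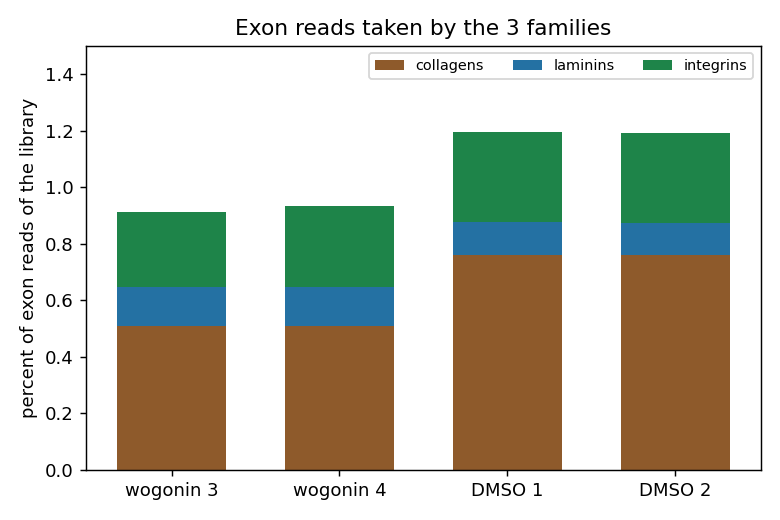
Percent of all exon reads taken by the collagen, laminin and integrin members, stacked, in each library (wogonin 3 and 4, then DMSO 1 and 2). The stacks reach 0.912% and 0.934% in the wogonin libraries and 1.20% and 1.19% in the DMSO libraries, with most of the gap in the collagens.

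**Figure D3:**
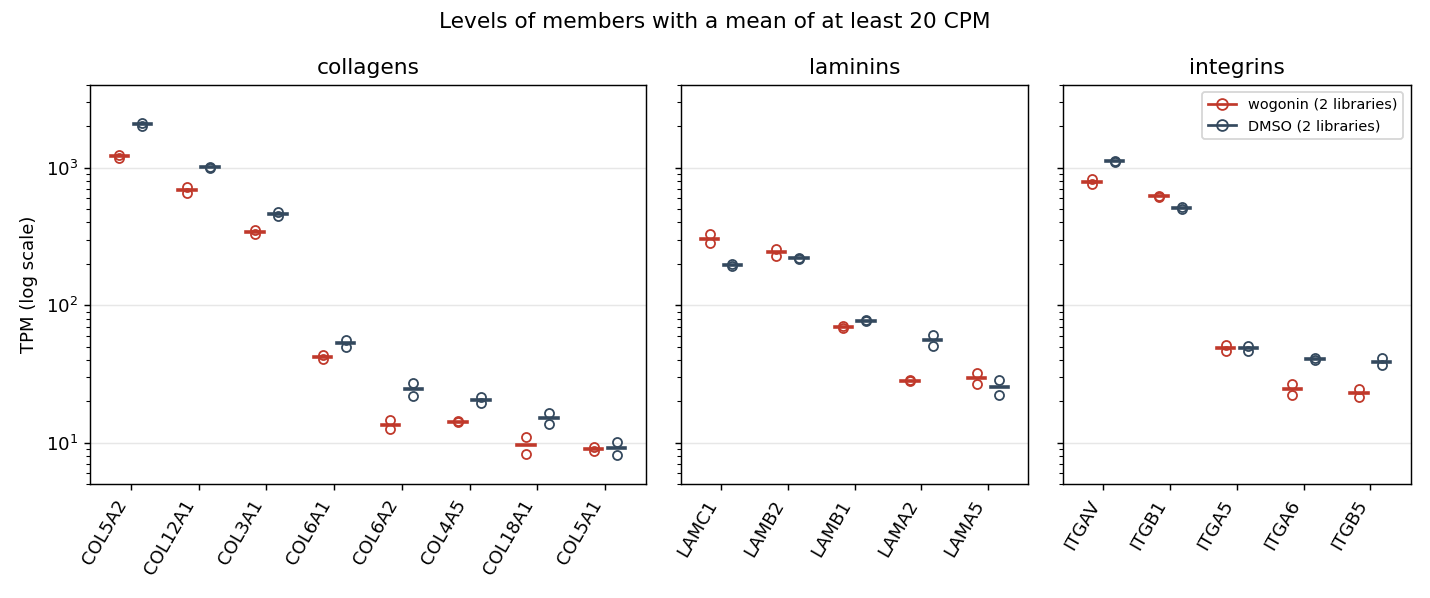
Deposited TPM (log axis) of the 18 members with a mean of at least 20 CPM, by family, with an open point for each library and a bar at the mean of its group, wogonin left of DMSO. COL5A2 is the highest member in all 4 libraries, followed by ITGAV and COL12A1 and then by ITGB1 and COL3A1.

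Fibrillar collagens, which build the tension-bearing fibrils of connective tissue, were led by COL5A2, the alpha-2 chain of type V collagen (ENSG00000204262, chromosome 2, 189896622 to 190044605, minus strand, GRCh37). COL5A2 had 2125 and 2350.4 CPM in the wogonin libraries, against 3417 and 3483 CPM in the DMSO libraries. Both wogonin libraries were below both DMSO libraries, with a log2 fold change of -0.62 ± 0.06 (SE, n = 2 each) and an adjusted p of 9.0e-08 in the edgeR test. In TPM it had 1184 and 1241 in the wogonin libraries and 2023 and 2103 in the DMSO libraries, rank 37 among the 20327 protein-coding rows by its mean.

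COL3A1, the chain of type III collagen (ENSG00000168542, chromosome 2, 189839046 to 189877472, plus strand), is the neighbour of COL5A2 on the chromosome. It had 606 and 597 CPM in the wogonin libraries, against 763 and 707 CPM in the DMSO libraries. The groups did not overlap, and the log2 fold change was -0.29 ± 0.06 with an edgeR adjusted p of 2.9e-04. COL1A1, the alpha-1 chain of type I collagen (ENSG00000108821, chromosome 17), had 76 and 82 exon reads in the wogonin libraries, against 152 and 128 in the DMSO libraries. Its log2 fold change was -0.67 ± 0.17 (edgeR adjusted p = 0.0023), at levels of 2.88 to 5.56 TPM over the 4 libraries, far under the 331 to 474 TPM of COL3A1. Its partner in the type I trimer, COL1A2, had 0 and 0 exon reads in the wogonin libraries and 0 and 2 in the DMSO libraries, which is within the floor of 3 counts.

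The partners of COL5A2 were lower in level and did not follow it past the threshold. COL5A1, the alpha-1 chain of type V collagen, had 25.9 and 25.7 CPM in the wogonin libraries, against 26.8 and 21.05 CPM in the DMSO libraries, so the groups overlapped (log2 fold change 0.11, edgeR adjusted p = 0.43). In TPM, COL5A2 stood far above COL5A1, which had 9.24 and 8.69 TPM in the wogonin libraries and 10.1 and 8.13 TPM in the DMSO libraries. COL11A1, a chain that can mix with type V chains, had 6.81 and 7.19 CPM in the wogonin libraries, against 9.16 and 9.05 CPM in the DMSO libraries (log2 fold change -0.38, edgeR adjusted p = 0.061). COL11A2, a relative of it, did not pass (log2 fold change 0.94, edgeR adjusted p = 0.065), and COL5A3 had at most 1 read in any library. COL27A1, a further fibrillar chain, had 70 and 74 exon reads in the wogonin libraries, against 57 and 59 in the DMSO libraries (log2 fold change 0.47, edgeR adjusted p = 0.052).

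Among collagens that attach to fibrils or link them, COL12A1, the chain of type XII collagen (ENSG00000111799, chromosome 6, 75794042 to 75915767, minus strand), was the most abundant. It had 2268 and 2144 CPM in the wogonin libraries, against 2950 and 2921 CPM in the DMSO libraries. The groups lay apart, with a log2 fold change of -0.41 ± 0.05 and an edgeR adjusted p of 4.1e-06. COL9A3, a chain of the cartilage-associated type IX collagen, had 3 and 2 exon reads in the wogonin libraries, against 15 and 12 in the DMSO libraries. It passed the filter on low counts through the DMSO libraries alone. Its read ratio, wogonin over DMSO, was 0.194 with an exact 95% interval of 0.0583 to 0.510, and the edgeR adjusted p was 0.0035, but the adjusted p was 0.079 with DESeq2 and 0.084 without DMSO 1. Its partners COL9A1 and COL9A2 had at most 1 read in any library. COL9A3 overlaps TCFL5 on the other strand, which had a log2 fold change of 0.27. COL14A1 and COL23A1, a membrane collagen, did not pass (log2 fold change -0.20 and -0.13, edgeR adjusted p = 0.37 and 0.64).

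The 3 main chains of type VI collagen, which forms beaded filaments around cells, were all lower in sign. COL6A2 (ENSG00000142173, chromosome 21, 47518011 to 47552763) had 16.9 and 20.8 CPM in the wogonin libraries, against 34.4 and 27.4 CPM in the DMSO libraries (log2 fold change -0.71 ± 0.13, edgeR adjusted p = 3.8e-04). COL6A1 had 57.9 and 57.5 CPM in the wogonin libraries, against 70.8 and 61.0 CPM in the DMSO libraries, which did not pass (log2 fold change -0.19 ± 0.09, edgeR adjusted p = 0.061) but did without DMSO 2 (-0.30, adjusted p = 0.021), while without DMSO 1 the value was -0.10 (adjusted p = 0.39). COL6A3 did not pass either (log2 fold change -0.33, edgeR adjusted p = 0.17). Whether these 3 chains changed by unequal amounts was not tested.

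COL7A1, the chain of the anchoring fibrils that tie basement membrane to the tissue under it (ENSG00000114270, chromosome 3, 48601506 to 48632700), was the 1 collagen called higher in exon reads, where other settings called up to 4. It had 59 and 80 exon reads in the wogonin libraries, against 26 and 30 in the DMSO libraries, or 5.51 and 7.38 CPM against 2.21 and 2.45 CPM. Its log2 fold change was 1.46 ± 0.26 (edgeR adjusted p = 1.3e-04). COL8A1, a short-chain network collagen, had 10 and 11 exon reads in the wogonin libraries and 5 and 5 in the DMSO libraries, with an edgeR adjusted p of 0.053. COL18A1, a basement membrane collagen whose end fragment is endostatin, had 23.5 and 18.6 CPM in the wogonin libraries, against 33.1 and 26.8 CPM in the DMSO libraries. Its log2 fold change was -0.51 ± 0.13 (edgeR adjusted p = 0.0045), and without DMSO 1 it was -0.37 with an adjusted p of 0.0825. COL18A1 overlaps SLC19A1 on the other strand, which had a log2 fold change of 0.56, and the use of strand in the counting is not given in the sources used here.

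Type IV collagen, the network of basement membranes, was represented by 1 of its 6 chains. COL4A5 (ENSG00000188153, X chromosome, 107683074 to 107940775, plus strand) had 31.4 and 32.5 CPM in the wogonin libraries, against 44.5 and 39.2 CPM in the DMSO libraries. Both wogonin values were below both DMSO values (log2 fold change -0.39 ± 0.10, edgeR adjusted p = 0.0023). COL4A1 had 1 and 0 exon reads in the wogonin libraries and 0 and 0 in the DMSO libraries, and COL4A2 had 0 in all 4. COL4A1 and COL4A2 are the usual chains of this network in most tissues. COL4A3 had 0 and 1 reads in the wogonin libraries and 0 and 0 in the DMSO libraries, while COL4A4 had 1 and 1 in the wogonin libraries and 1 and 0 in the DMSO libraries. COL4A6, which lies head to head with COL4A5, had 1 and 5 reads in the wogonin libraries and 5 and 5 in the DMSO libraries.

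The study's question concerns DNA demethylation, for which CpG sites are the substrate, so the promoters of an unread and 4 well-read members are shown in RefSeq sequence of GRCh38.p14 (250 bases before to 50 after the start, read 5' to 3' on the gene's strand, with each CpG in capitals). They are COL4A2 at chr13:110307034-110307333 (plus strand, 45 CpG), COL4A5 at chrX:108439588-108439887 (plus strand, 8 CpG), COL12A1 at chr6:75206004-75206303 (minus strand, 29 CpG), ITGAV at chr2:186589806-186590105 (plus strand, 23 CpG) and LAMC1 at chr1:183023170-183023469 (plus strand, 41 CpG).
COL4A2: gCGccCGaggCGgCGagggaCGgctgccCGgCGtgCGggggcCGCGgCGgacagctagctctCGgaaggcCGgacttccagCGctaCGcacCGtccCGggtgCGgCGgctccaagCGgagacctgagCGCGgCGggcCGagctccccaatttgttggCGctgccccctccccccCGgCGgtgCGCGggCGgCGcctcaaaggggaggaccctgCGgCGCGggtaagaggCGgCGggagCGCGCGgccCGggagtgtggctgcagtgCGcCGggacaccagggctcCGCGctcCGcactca
COL4A5: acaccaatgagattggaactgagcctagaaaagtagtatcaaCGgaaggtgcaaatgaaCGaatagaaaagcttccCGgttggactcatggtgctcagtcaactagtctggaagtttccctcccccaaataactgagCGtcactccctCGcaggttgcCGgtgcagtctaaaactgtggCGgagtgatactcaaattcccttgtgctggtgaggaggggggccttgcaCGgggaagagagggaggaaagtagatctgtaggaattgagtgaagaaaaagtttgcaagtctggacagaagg
COL12A1: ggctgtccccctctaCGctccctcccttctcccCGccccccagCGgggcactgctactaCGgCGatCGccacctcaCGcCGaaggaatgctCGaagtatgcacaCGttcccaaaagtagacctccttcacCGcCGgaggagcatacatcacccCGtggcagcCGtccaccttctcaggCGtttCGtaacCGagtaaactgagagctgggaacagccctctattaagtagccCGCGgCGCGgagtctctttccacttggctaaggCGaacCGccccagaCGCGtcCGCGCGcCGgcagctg
ITGAV: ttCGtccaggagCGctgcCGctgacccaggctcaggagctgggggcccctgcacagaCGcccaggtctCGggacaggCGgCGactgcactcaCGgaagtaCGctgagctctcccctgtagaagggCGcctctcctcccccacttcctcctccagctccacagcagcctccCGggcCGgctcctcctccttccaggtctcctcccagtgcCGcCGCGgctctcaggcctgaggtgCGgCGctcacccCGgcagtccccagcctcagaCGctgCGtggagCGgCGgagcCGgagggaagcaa
LAMC1: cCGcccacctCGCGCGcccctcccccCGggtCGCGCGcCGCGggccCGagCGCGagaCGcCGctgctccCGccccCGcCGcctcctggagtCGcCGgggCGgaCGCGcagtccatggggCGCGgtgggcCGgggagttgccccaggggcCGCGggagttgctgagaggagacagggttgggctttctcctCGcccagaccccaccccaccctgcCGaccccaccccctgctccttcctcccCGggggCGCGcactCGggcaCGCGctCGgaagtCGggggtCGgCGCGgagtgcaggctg

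The COL4A2 window, with no exon read in any library, held more CpG than those of COL4A5, COL12A1, ITGAV and LAMC1. These windows were picked for display, and COL18A1, a member with a mean of at least 20 CPM that is not shown, had 46 CpG. A RefSeq promoter was at hand for 58 of the 81 members. COL5A2, COL3A1 and COL6A1, each with a mean of at least 20 CPM, were not among the 58. The 15 of the 58 with a mean of at least 20 CPM had a median of 29 CpG (range 8 to 46). The 24 with 3 reads or fewer in each library had a median of 17.5 (range 1 to 45), and the 19 between them had 16. All 35116 promoters of the table had a median of 14. GGGCGG, searched on both strands, stood in 80.0% of the first class, 50.0% of the second and 47.4% of the third, against 45.0% of all promoters. TATAAA, also on both strands, stood in 13.3%, 8.33% and 10.5% of these classes and in 11.5% of all promoters. The transcription starts of COL4A1 and COL4A2 lie 127 bases apart and those of COL4A5 and COL4A6 380 bases apart. These are descriptions of the reference sequence; methylation was not measured in these files.

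**Figure D4:**
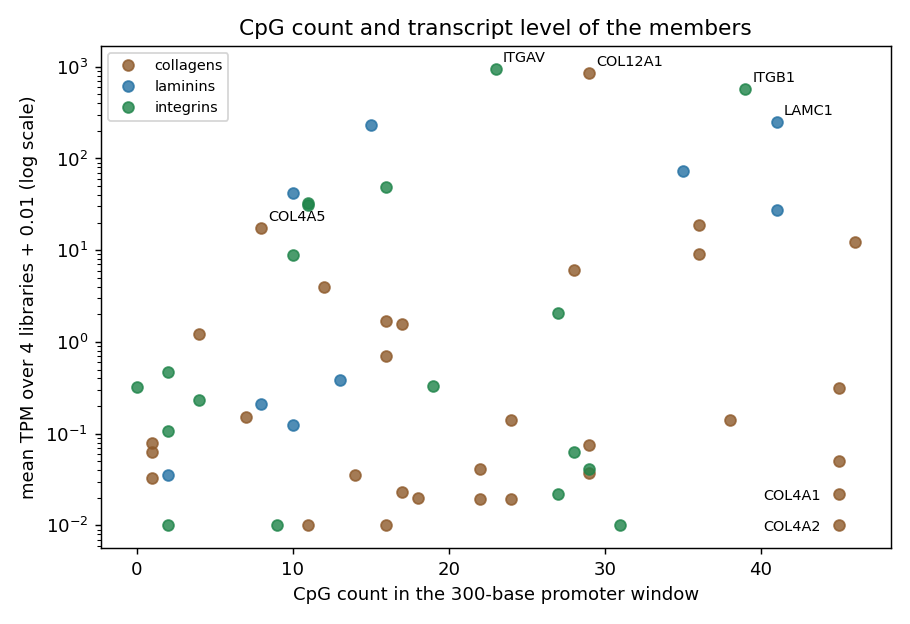
CpG count in the 300-base promoter window (horizontal axis) against mean TPM over the 4 libraries plus 0.01 (vertical axis, log scale) for the 58 members with a RefSeq promoter. COL4A1 and COL4A2, whose windows share 226 bases, lie at the CpG-rich end with almost no transcript. LAMC1 (41 CpG) and ITGB1 (39 CpG) lie near that end with high levels. COL4A5 has 8 CpG and a level between these.

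Laminin gamma chains were represented by LAMC1, the gamma-1 chain of most laminins (ENSG00000135862, chromosome 1, 182992595 to 183114727, plus strand). LAMC1 had 692 and 627 CPM in the wogonin libraries, against 394 and 376 CPM in the DMSO libraries. The groups were well apart, with a log2 fold change of 0.78 ± 0.06 and an edgeR adjusted p of 1.3e-08. LAMC3, a gamma chain of fewer tissues, did not pass (log2 fold change -0.27, edgeR adjusted p = 0.28).

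Of the beta chains, LAMB2 had 393 and 466 CPM in the wogonin libraries, against 354 and 348 CPM in the DMSO libraries. It was called higher (log2 fold change 0.29 ± 0.07, edgeR adjusted p = 0.0035), but without DMSO 2 the adjusted p was 0.052, without wogonin 4 the log2 fold change was 0.16, and in the total of exon and intron reads the log2 fold change was 0.22 with an adjusted p of 0.099. LAMB1 had 140 and 153 CPM in the wogonin libraries, against 149 and 145 CPM in the DMSO libraries, so the groups overlapped (edgeR adjusted p = 0.96), and LAMB1 overlaps DLD on the other strand. In TPM, LAMC1 stood above LAMB2 in both wogonin libraries and below it in both DMSO libraries.

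The alpha chains, which set the receptors a laminin can bind, did not move together. LAMA2, the chain of muscle and nerve laminins (ENSG00000196569, chromosome 6, 129204342 to 129837714, plus strand), had 71.4 and 74.1 CPM in the wogonin libraries, against 121 and 141 CPM in the DMSO libraries. Its log2 fold change was -0.85 ± 0.08 with an edgeR adjusted p of 1.9e-07. LAMA5, the widespread alpha chain of adult basement membranes, had 119 and 104 CPM in the wogonin libraries, against 99.8 and 75.1 CPM in the DMSO libraries. It did not pass (log2 fold change 0.35 ± 0.15, edgeR adjusted p = 0.10), though it did with DESeq2 (adjusted p = 0.015) and without DMSO 1 (log2 fold change 0.56, adjusted p = 0.0024). Without DMSO 2 its log2 fold change was 0.16 (adjusted p = 0.20) and without wogonin 3 it was 0.26 (adjusted p = 0.33), and LAMA5 overlaps ADRM1. LAMA3, the epithelial alpha chain, had 21 and 21 exon reads in the wogonin libraries, against 6 and 9 in the DMSO libraries (edgeR adjusted p = 0.0034). It passed the filter on low counts through the wogonin libraries alone. The read ratio of LAMA3 was 2.93 with an exact 95% interval of 1.59 to 5.69, and the adjusted p was 0.064 with DESeq2 and 0.070 without DMSO 1. Its partner LAMB3 had 2 and 0 reads in the wogonin libraries and 1 and 3 in the DMSO libraries. LAMA1 and LAMA4 had at most 14 reads in any library.

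LAMA2 made 46.3% and 50.4% of laminin alpha TPM in the wogonin libraries and 63.6% and 72.7% in the DMSO libraries. LAMA5 made 52.6% and 48.3% in the wogonin libraries and 35.9% and 26.5% in the DMSO libraries. LAMA2 had 28.4 and 27.9 TPM in the wogonin libraries and 50.9 and 60.6 TPM in the DMSO libraries. LAMA5 had 32.3 and 26.8 TPM in the wogonin libraries and 28.8 and 22.1 TPM in the DMSO libraries. The 2 alpha chains overlapped in TPM in the wogonin libraries, and LAMA2 lay above LAMA5 in both DMSO libraries. The difference between their changes was not tested.

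Integrin alpha subunits were dominated by ITGAV, the partner of several beta subunits in receptors for vitronectin and fibronectin (ENSG00000138448, chromosome 2, 187454792 to 187545628, plus strand). ITGAV had 1567 and 1787 CPM in the wogonin libraries, against 2146 and 2115 CPM in the DMSO libraries. Its log2 fold change was -0.35 ± 0.06 with an edgeR adjusted p of 1.6e-04. ITGAV made 89.2% and 90.1% of all alpha subunit TPM in the wogonin libraries and 91.1% and 91.1% in the DMSO libraries. Only 56.9% of its exon reads matched a single place, and in those reads alone its log2 fold change was -0.25 with an adjusted p of 0.0011.

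ITGB1, the beta subunit shared by most collagen, laminin and fibronectin receptors (ENSG00000150093, chromosome 10, 33189247 to 33294720, minus strand), went the other way. It had 963 and 994 CPM in the wogonin libraries, against 726 and 739 CPM in the DMSO libraries. Its log2 fold change was 0.42 ± 0.05 with an edgeR adjusted p of 4.3e-06. ITGB1 made 96.0% and 96.5% of beta subunit TPM in the wogonin libraries and 92.2% and 93.0% in the DMSO libraries. ITGAV stood at 121% and 134% of the TPM of ITGB1 in the wogonin libraries and at 221% and 214% in the DMSO libraries. ITGB5, a partner of ITGAV in a vitronectin receptor (ENSG00000082781), had 39.8 and 36.5 CPM in the wogonin libraries, against 62.4 and 55.1 CPM in the DMSO libraries (log2 fold change -0.62 ± 0.09, edgeR adjusted p = 2.0e-05). Other ITGAV partners were near the floor, with ITGB6 at 12 reads or fewer and ITGB8 at 4 or fewer in any library.

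ITGA5, the fibronectin receptor subunit that pairs with ITGB1, had 97.2 and 93.1 CPM in the wogonin libraries, against 89.7 and 82.1 CPM in the DMSO libraries, and did not pass (log2 fold change 0.15, edgeR adjusted p = 0.089). ITGA6, a laminin receptor subunit that pairs with ITGB1 or ITGB4 (ENSG00000091409), had 37.7 and 47.8 CPM in the wogonin libraries, against 63.3 and 64.4 CPM in the DMSO libraries (log2 fold change -0.58 ± 0.10, edgeR adjusted p = 1.5e-04). In TPM, ITGA6 and ITGB5 overlapped in both groups. ITGB4, the hemidesmosome subunit that pairs with ITGA6, had 4 and 3 exon reads in the wogonin libraries, against 12 and 20 in the DMSO libraries. It passed the filter on low counts through the DMSO libraries alone. Its read ratio was 0.229 with an exact 95% interval of 0.0852 to 0.528 (edgeR adjusted p = 0.0044), the adjusted p was 0.080 with DESeq2 and 0.122 without DMSO 2, and ITGB4 overlaps GALK1. The collagen receptor subunits ITGA1 and ITGA2 and the laminin receptor subunits ITGA3 and ITGA7 did not pass, nor did the leukocyte subunit ITGB2 (log2 fold change 0.80, edgeR adjusted p = 0.20). ITGAE, an alpha subunit best known from lymphocytes in epithelia, did not pass (edgeR adjusted p = 0.87), and it overlaps GSG2, which had a log2 fold change of 0.77.

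Reads in introns are a second readout of the same libraries, and were tested in a separate fit of 10495 genes in which 20.1% were called, 11.3% higher and 8.82% lower. Of the 26 members tested there, 4 were higher (ITGAV, ITGB1, ITGA9 and COL6A6) and 2 lower (COL5A2 and COL11A1) after wogonin. ITGA9 and COL6A6 had few intron reads in the DMSO libraries and passed the filter on low counts through the wogonin libraries, so the count of 4 is no support for a direction. COL11A1 had 7 and 10 intron reads in the wogonin libraries, against 16 and 22 in the DMSO libraries. It passed the filter through the DMSO libraries, so the count of 2 lower is no support for a direction either. COL5A2 had 316 and 158 intron reads in the wogonin libraries, against 440 and 357 in the DMSO libraries, and its intron log2 fold change was -1.10 with an edgeR adjusted p of 0.0064, the same direction as its exon reads. ITGB1 had 383 and 192 intron reads in the wogonin libraries, against 123 and 117 in the DMSO libraries (intron log2 fold change 0.91, edgeR adjusted p = 0.019), also in the direction of its exon reads. ITGAV had 1084 and 764 intron reads in the wogonin libraries, against 410 and 369 in the DMSO libraries. Its intron log2 fold change was 0.93 with an edgeR adjusted p of 0.0095, opposite in sign to its exon change, and it was 0.43 with an adjusted p of 0.24 in intron reads that matched a single place. The intron calls of COL5A2, ITGB1 and ITGAV were lost without DMSO 1 (adjusted p = 0.25, 0.28 and 0.26) and without DMSO 2 (0.070, 0.36 and 0.39). Wogonin 3, the library with the larger intron share, had the most intron reads of ITGAV and ITGB1 before scaling. Scaled to the intron totals with TMM factors, ITGAV had 1162 and 1212 intron CPM in wogonin 3 and 4, against 664 and 579 in DMSO 1 and 2. ITGB1 had 410 and 304 intron CPM in wogonin 3 and 4, against 199 and 183 in DMSO 1 and 2.

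LAMA2 had 591 and 336 intron reads in the wogonin libraries, against 353 and 378 in the DMSO libraries, so the groups overlapped while exon reads fell. Introns held 43.6% and 29.5% of LAMA2 reads in the wogonin libraries and 19.9% and 18.0% in the DMSO libraries, and the intron log2 fold change was 0.00 (edgeR adjusted p = 0.99). ITGA9, a partner of ITGB1, had 6 and 6 exon reads in the wogonin libraries and 1 and 1 in the DMSO libraries. Its intron reads were 38 and 25 in the wogonin libraries and 1 and 0 in the DMSO libraries. ITGA9 entered the intron test through the wogonin libraries alone, so its intron call is no support for a change. The intron read ratio of ITGA9 was 51.1, with an exact 95% interval, for counting error alone, of 8.84 to 2048. ITGA9 overlaps AC093415.2 on the other strand, which had 79 and 79 reads in the wogonin libraries and 21 and 43 in the DMSO libraries. COL6A6, a further type VI chain, had 35 and 20 intron reads in the wogonin libraries, against 4 and 5 in the DMSO libraries. It too entered the intron test through the wogonin libraries alone. Its intron read ratio was 4.95, with an exact 95% interval, for counting error alone, of 2.43 to 11.4.

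**Figure D5:**
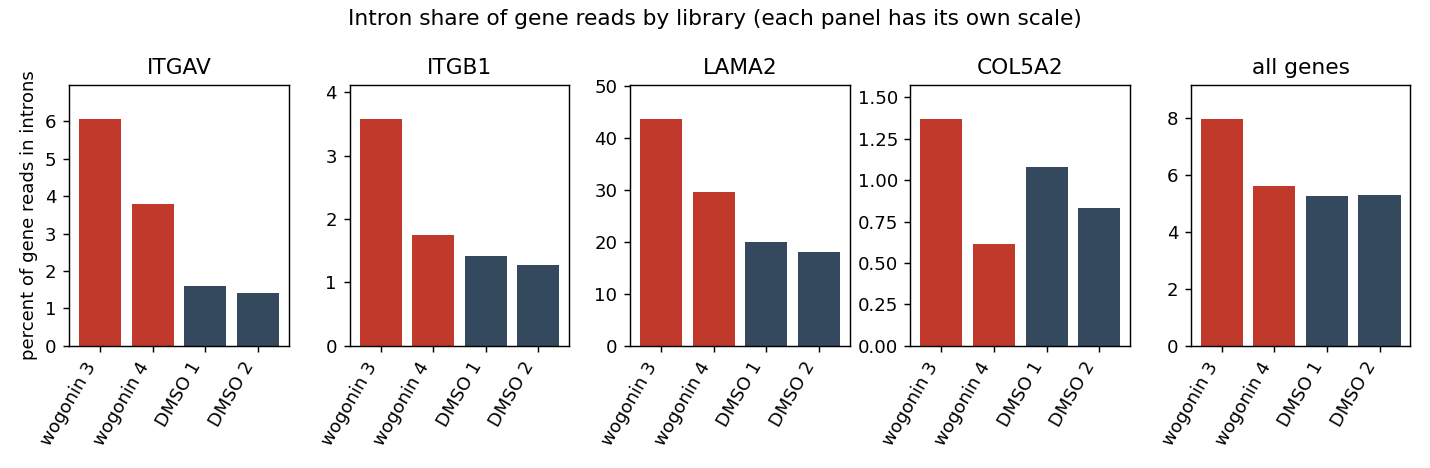
Percent of gene reads that lie in introns, by library, for ITGAV, ITGB1, LAMA2, COL5A2 and all genes, each panel with its own scale. The shares of ITGAV, ITGB1, LAMA2 and all genes are higher in both wogonin libraries than in both DMSO libraries, while those of COL5A2 overlap. ITGAV has 6.07% and 3.79% against 1.59% and 1.40%, and all genes have 7.96% and 5.61% against 5.26% and 5.29%. Wogonin 3 is the highest in each panel.

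The genes that fold, crosslink, cut, bind and signal from these proteins were taken as 5 lists, whose counts stand beside 32.3% higher and 31.5% lower among all genes tested. Of 28 genes for collagen folding and crosslinking 27 were found and 22 were tested, 10 were higher and 4 lower (45.5% and 18.2%), with a median log2 fold change of 0.01. PPIB, a prolyl isomerase of the collagen folding complex, was higher (log2 fold change 0.66, edgeR adjusted p = 4.9e-08), and so was P4HB, a subunit of the collagen prolyl hydroxylase (0.61, edgeR adjusted p = 8.6e-08). COLGALT2, a collagen galactosyltransferase, was lower, with 21.4 and 23.7 CPM in the wogonin libraries against 45.5 and 47.2 CPM in the DMSO libraries. Of 35 other matrix genes 20 were tested, 4 were higher and 5 lower (20% and 25%), with a median of -0.09. THBS3, a thrombospondin, had -0.88 and LTBP1, which anchors latent TGF-beta in the matrix, had -1.14. TNXB, a tenascin, had 3.11, and it overlaps ATF6B. Of 31 matrix proteases and inhibitors 22 were tested, 6 were higher and 10 lower (27.3% and 45.5%), with a median of -0.16. ADAM15, a membrane protease, had a log2 fold change of 1.06, while MMP10, a stromelysin, had -1.73 and TIMP1, an inhibitor of matrix metalloproteases, had -0.63.

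Of 38 integrin adaptor and focal adhesion genes 33 were tested, 18 were higher and 7 lower (54.5% and 21.2%, beside 32.3% and 31.5% of all genes tested), with a median log2 fold change of 0.22. ZYX, the focal adhesion protein zyxin, had 133 and 134 CPM in the wogonin libraries, against 76.3 and 68.4 CPM in the DMSO libraries (log2 fold change 0.88 ± 0.07, edgeR adjusted p = 2.9e-08). PARVB, an adaptor of the integrin-linked kinase complex, had a log2 fold change of 0.91, and TNS3, a tensin, had -0.70. Of 24 other matrix receptors and integrin partners 21 were tested, 7 were higher and 6 lower (33.3% and 28.6%), with a median of 0.09. BCAM, a receptor for the laminin chain LAMA5, had 7.75 and 7.47 CPM in the wogonin libraries, against 34.4 and 28.4 CPM in the DMSO libraries (log2 fold change -2.04 ± 0.14, edgeR adjusted p = 3.4e-09). UTRN, which links the laminin receptor dystroglycan to actin, was also lower, by a log2 fold change of -1.26, while DAG1, dystroglycan itself, named here after its values were seen, had 309 and 309 CPM in the wogonin libraries and 312 and 297 CPM in the DMSO libraries. CD63, a tetraspanin that associates with integrins, had a log2 fold change of 0.79. The medians of the 5 lists lay between -0.16 and 0.22, beside -0.00066 for all genes tested.

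Because collagens are also products of fibroblasts, 8 fibroblast and stroma markers (DCN, LUM, PDGFRA, PDGFRB, THY1, FAP, POSTN and ACTA2) were read beside them. Of these, 5 were tested, of which THY1 (log2 fold change 0.81) and ACTA2 (0.93) were higher and POSTN (-1.13) lower after wogonin. Their summed TPM was 521 and 437 in the wogonin libraries and 296 and 292 in the DMSO libraries, most of it ACTA2. FAP was at 0 reads in all 4 libraries, and PDGFRA and PDGFRB were at 0 in both wogonin libraries. The part of these markers in the collagen values was not tested.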

How the data were processed

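RNA was sequenced from A2780 cells (2 wogonin and 2 DMSO libraries). Aligner, counter and use of strand: not given in the sources used here. Builds named in the submitters' processing notes are GRCh 37 and hg 19. The authors deposited, per the file headers, exon and intron read counts for each gene (total and matching a single place) and TPM values. Total exon counts entered the tests unchanged, and the deposited TPM served to compare levels between genes. The test was the edgeR 4.0.16 one (R 4.3.3, filterByExpr, TMM, robust quasi-likelihood fit, treatment as the single term, 2-sided), with Benjamini-Hochberg adjustment over all 13449 genes tested and a threshold of 0.05. Standard errors were derived from the fitted log2 fold change and its F statistic. P-values reflect the spread among these 4 libraries alone, which may be technical. Ratios of reads carry exact 95% intervals, and intervals and the floor of 3 counts cover counting error only. Intron reads were tested in the same way in a fit of their own. DESeq2 1.42.0, limma-voom 3.58.1, other scalings, filters and count columns, and leaving out each library were tried as alternatives. The members and lists were chosen with earlier results of these data known. Genes named with values were tested members past the threshold with an absolute log2 fold change of at least 0.5 or a mean of at least 10 CPM, tested members with a mean of at least 20 CPM, their chain partners, and up to 3 genes of each list; others were named after their values were seen. Promoter sequences and starts are RefSeq's (GRCh38.p14), matched by symbol; no coordinates of the 2 builds were mixed. Members not named in the text are given by their counts alone. PECAM1 and 1 gene of the collagen folding list were not matched by name.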

Additional observations from a re-analysis of the deposited data

How the results depend on the processing

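No paired analysis was possible because the labels number the DMSO libraries 1 and 2 and the wogonin libraries 3 and 4, so no number is shared. Of the 18 called members, 13 kept their call and direction under all 14 alternatives, and 5 (COL9A3, ITGB4, LAMA3, COL18A1 and LAMB2) lost the call under at least 1. No called member changed sign where it was tested, while COL5A1 and LAMB1, which were not called, had either sign. The count of members higher was 5 of 37 in the report, beside 4343 of 13449 of all genes tested. It was 9 of 72 with no filter (all genes 4538 of 21173) and 9 of 36 in exon reads matching a single place (3994 of 12394). In gene reads, which add introns, it was 11 of 46 for total reads (4523 of 15201) and 11 of 45 for single-place reads (4344 of 14060). Collagens higher, 1 of 18 tested in the report, were 3 of 38 with no filter and 4 of 18 in single-place exon reads. They were 4 of 20 and 4 of 20 in the gene reads. With limma-voom they were 2 of 18 (all genes 4354 of 13449), and with a length trend removed 2 of 18 (all genes 4373 of 13449). Integrins higher, 1 of 12 tested in the report, were 2 of 23 with no filter. In the total and single-place gene reads they were 5 of 18 and 5 of 17. The gene reads added COL27A1, COL6A6, COL8A1, ITGA9, ITGAE, ITGAX and ITGB2 among those higher. Of these, COL6A6, COL8A1, ITGA9 and ITGAX passed the filter on low counts through the wogonin libraries alone. The larger counts in gene reads are therefore no support for a direction. Intron calls were less stable among the 26 members tested, beside 11.3% higher and 8.82% lower of all genes in the report. The 4 higher were 2 with DESeq2. The 2 lower were 1 each with library totals alone, a mean of at least 10 counts, DESeq2 and limma-voom. Leaving out each library in turn gave 4 to 5 members higher and 11 to 13 lower in exons, and 2 to 6 higher and 0 to 7 lower in introns. These fits tested 38 to 40 members in exons and 30 to 32 in introns, so their counts do not stand beside 37 and 26. Each of these fits holds 1 library in a group, and no background of all genes is set beside them. The counts from these fits are therefore no support for a direction. Which members passed in introns also depended on the library left out. The cause was not tested. Library totals alone moved the median of all genes to -0.09. At these depths members with under about 20 reads, such as ITGB4 and COL9A3, carry wide intervals.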

Other observations

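Some related genes lie outside the rule by which the members were chosen. ITGB3, the beta subunit of the platelet fibrinogen receptor and a partner of ITGAV, is listed only under the names ITGB3_1 and ITGB3_2. ITGB3_1 had 1 and 2 exon reads in the wogonin libraries, against 6 and 8 in the DMSO libraries, and ITGB3_2 had 0 in all 4. COL26A1 is listed as a polymorphic pseudogene and had 9 and 8 exon reads in the wogonin libraries and 9 and 9 in the DMSO libraries. Among the members too low to be tested, COL25A1, a membrane collagen known from brain, had 3 and 6 exon reads in the wogonin libraries and 0 and 0 in the DMSO libraries.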
